A study of Mus musculus with 99 samples.

Results

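Monoubiquitination of a lysine in the C-terminal tail of histone H2A (H2AK119ub1) was mapped by ChIP-seq in mouse embryonic stem cells (mESC) under 4 conditions, with 1 library for each. The members described here are the peaks of these 4 libraries, taken as deposited: 37048 of the 408060 peaks in all deposited lists of the series. All lines derive from ROSA26::creERT2 RING1A−/−; RING1B fl/fl mESC, so that RING1A is missing in every group, controls included, and 4-hydroxy tamoxifen (OHT) activates a Cre recombinase that removes the RING1B alleles. Parental −OHT cells received ethanol and Parental +OHT cells received 0.5 µM OHT, for 72 h. RING1B WT +OHT and RING1B I53S +OHT cells carry in addition a stably integrated Flag-HA-tagged transgene under the CAG promoter, which encodes wild-type RING1B or RING1B with the I53S substitution of its RING domain, and received the same OHT. The transgenic lines are sub-cloned drug-resistant cells, so that a property of a clone cannot be told apart from an effect of its transgene. For the same lines, RNA-seq counts with and without OHT were available in 12 libraries, 2 for each of 6 groups; nothing in the labels says that the replicates were separate cultures, and the p-values then measure only the spread between these libraries, which may be technical.

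Polycomb repressive complex 1 (PRC1) is built around RING1A or RING1B, the E3 ubiquitin ligases that place H2AK119ub1, together with a PCGF subunit that sets the type of complex. Canonical complexes contain a CBX protein that binds H3K27me3, the mark of Polycomb repressive complex 2 (PRC2), and variant complexes contain RYBP or YAF2 in its place. In embryonic stem cells both marks lie over CpG-rich promoters of developmental genes, which are kept at low expression, and the PRC2 accessory subunits JARID2 and AEBP2 can bind H2AK119ub1.

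A peak is a stretch of the mm10 genome (GRCm38) in which a library held more reads than the input at a p-value that MACS2 assigned, and its score is the −log10 of that p-value, at least 10 in each list. The promoter of a gene was taken as the sequence within 2.5 kb of an annotated start site on either side, and a gene with a peak there is called marked. The number of CG dinucleotides in a promoter shifted with the lists in which it was marked, with wide overlap. The following 300-base promoters (RefSeq, GRCm38.p6, from 250 bases before to 50 after the start, written in the direction of transcription, with each CG in capitals) show that range. They are the protein-coding promoters with the highest scores in their class among those covered over the whole window, and were chosen after their values were seen. Hoxa2 (chr6:52164782-52165081, minus strand), a regulator of hindbrain and branchial arch identity, and Ntsr1 (chr2:180499726-180500025, plus strand), a neurotensin receptor, were marked in Parental −OHT and RING1B WT +OHT only.
Hoxa2: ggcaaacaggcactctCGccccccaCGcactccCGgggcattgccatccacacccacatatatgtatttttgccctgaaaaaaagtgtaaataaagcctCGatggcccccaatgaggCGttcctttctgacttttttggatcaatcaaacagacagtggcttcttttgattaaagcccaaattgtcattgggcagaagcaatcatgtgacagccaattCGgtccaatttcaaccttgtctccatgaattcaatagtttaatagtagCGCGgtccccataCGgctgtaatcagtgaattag
Ntsr1: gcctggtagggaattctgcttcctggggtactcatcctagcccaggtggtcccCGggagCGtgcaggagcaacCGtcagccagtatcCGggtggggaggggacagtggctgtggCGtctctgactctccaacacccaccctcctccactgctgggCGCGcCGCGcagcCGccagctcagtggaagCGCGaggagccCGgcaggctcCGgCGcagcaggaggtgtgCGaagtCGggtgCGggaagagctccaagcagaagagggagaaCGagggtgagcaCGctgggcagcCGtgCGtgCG
Grb10 (chr11:12027922-12028221, minus strand), an imprinted adaptor that restrains growth factor signalling, and Socs3 (chr11:117969317-117969616, minus strand), a feedback inhibitor of cytokine signalling, were marked in all 4 lists.
Grb10: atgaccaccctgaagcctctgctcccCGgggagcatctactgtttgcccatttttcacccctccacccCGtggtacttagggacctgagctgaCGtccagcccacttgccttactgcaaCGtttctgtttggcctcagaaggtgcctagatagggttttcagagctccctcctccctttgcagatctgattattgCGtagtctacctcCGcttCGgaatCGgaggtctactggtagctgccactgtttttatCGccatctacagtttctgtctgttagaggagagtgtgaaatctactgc
Socs3: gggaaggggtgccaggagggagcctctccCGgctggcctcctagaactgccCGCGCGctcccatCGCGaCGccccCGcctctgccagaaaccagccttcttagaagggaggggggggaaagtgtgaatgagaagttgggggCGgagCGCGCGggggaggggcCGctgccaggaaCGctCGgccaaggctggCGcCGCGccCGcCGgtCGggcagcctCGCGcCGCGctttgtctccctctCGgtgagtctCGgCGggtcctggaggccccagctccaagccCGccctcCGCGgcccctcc
Tle4 (chr19:14597164-14597463, minus strand), a Groucho-family corepressor, and Usp25 (chr16:77013819-77014118, plus strand), a deubiquitinase, were marked in Parental +OHT only.
Tle4: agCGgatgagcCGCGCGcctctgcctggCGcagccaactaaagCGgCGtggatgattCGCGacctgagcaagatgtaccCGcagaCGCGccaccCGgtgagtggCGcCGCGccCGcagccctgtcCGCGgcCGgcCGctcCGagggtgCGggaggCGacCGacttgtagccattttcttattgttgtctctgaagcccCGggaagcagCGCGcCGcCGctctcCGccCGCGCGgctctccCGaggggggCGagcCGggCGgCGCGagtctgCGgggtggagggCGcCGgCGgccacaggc
Usp25: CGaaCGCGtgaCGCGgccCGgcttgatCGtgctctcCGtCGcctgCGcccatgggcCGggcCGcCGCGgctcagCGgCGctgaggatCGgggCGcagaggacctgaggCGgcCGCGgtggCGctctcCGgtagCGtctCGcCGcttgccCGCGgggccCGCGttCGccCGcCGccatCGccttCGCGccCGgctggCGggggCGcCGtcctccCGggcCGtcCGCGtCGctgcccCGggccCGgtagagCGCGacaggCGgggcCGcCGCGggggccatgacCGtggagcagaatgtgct
These windows hold 9 CG in Hoxa2, 23 in Ntsr1, 9 in Grb10, 31 in Socs3, 44 in Tle4 and 54 in Usp25. Over all 32851 RefSeq promoters of this length the median was 7 CG. It was 18 (quartiles 8 and 29) for promoters of genes marked in Parental −OHT, 18 (8 and 28) in RING1B WT +OHT, 22 (12 and 32) in Parental +OHT and 22 (12 and 32) in RING1B I53S +OHT. Genes marked in Parental −OHT and RING1B WT +OHT only had a median of 13 CG, genes marked in all 4 lists 22, and genes marked in Parental +OHT only 25. The lists with OHT and no wild-type RING1B thus had the higher median, although single promoters such as Grb10 lay far from the median of their class.

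The list was longest with wild-type RING1B and shortest with the I53S transgene. Parental −OHT held 12648 peaks over 23.3 Mb, Parental +OHT 5450 over 7.95 Mb, RING1B WT +OHT 15830 over 33.8 Mb and RING1B I53S +OHT 3120 over 4.38 Mb. With 1 library per condition these numbers have no replicate error, the depth of each library is unknown from the lists, and library and condition cannot be told apart. The lists also do not carry the Drosophila spike-in that was added to the chromatin. They thus give where a region passed the threshold and not how much H2AK119ub1 the cells held. The paper reports a global loss of H2AK119ub1 on western blots of Parental and RING1B I53S cells with OHT. For RING1B I53S cells it also reports a complete loss in ChIP-seq at PRC1 target loci. A peak or marked gene in the lists of these cells therefore means a region past the threshold. Whether H2AK119ub1 was present there was not tested.

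Wide domains were mostly a feature of the lists with wild-type RING1B. The median peak width was 1292 bp in Parental −OHT, 1160 bp in Parental +OHT, 1446 bp in RING1B WT +OHT and 1092 bp in RING1B I53S +OHT. Peaks of at least 5 kb numbered 663, 82, 1218 and 47 in that order, and peaks of at least 10 kb numbered 129, 2, 219 and 2. The widest peak of Parental −OHT, 50474 bp at chr11:96267922-96318395, ran from Hoxb4 to Hoxb9, and the widest of RING1B WT +OHT measured 39114 bp. In Parental +OHT and RING1B I53S +OHT the widest peaks measured 11835 bp and 13131 bp. Peaks at promoters were wider than the others in each list, with medians of 1384 against 1157 bp, 1181 against 1018 bp, 1603 against 1254 bp and 1113 against 982 bp.

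**Figure D1:**
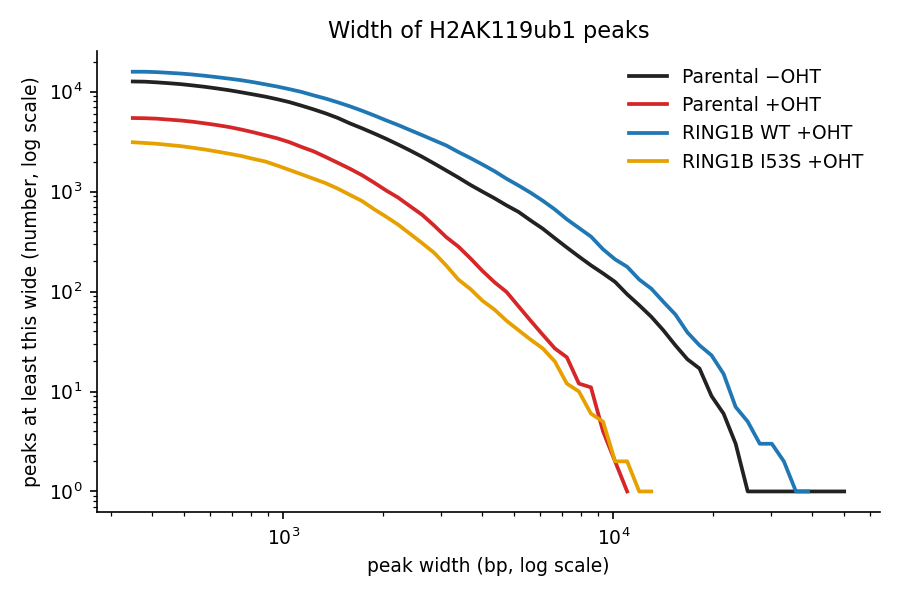
Number of H2AK119ub1 peaks (vertical axis, log scale) at least as wide as the width on the horizontal axis (bp, log scale), 1 line for each of the 4 libraries. The lines of Parental −OHT and RING1B WT +OHT reach 50474 and 39114 bp, whereas those of Parental +OHT and RING1B I53S +OHT end at 11835 and 13131 bp.

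Scores did not follow the same order as widths. The median score was 14.4 in Parental −OHT, 15.9 in Parental +OHT, 15.1 in RING1B WT +OHT and 15.2 in RING1B I53S +OHT, a range narrower than the quartiles of any of the lists. The highest score of each list was that of Grb10, on chromosome 11: 274 in Parental −OHT, 324 in Parental +OHT, 500 in RING1B WT +OHT and 777 in RING1B I53S +OHT, for peaks of 23370, 8554, 21534 and 13131 bp. On the other chromosomes the highest scores at promoters were 96.3 at Dll4, 226 at Gm10800, 191 at Gm26917 and 195 at Neurog1 in the same order. A p-value grows stronger with depth as well as with enrichment, so that scores given for a gene in several lists are values side by side and not a measure of change. Input regions were taken from 4 lists of H3K27me3 inputs of MTF2 knockout lines of the series, and numbered 21 after merging. None came from an H2AK119ub1 input, so that background in the 4 H2AK119ub1 libraries was not tested. Only 3, 11, 4 and 11 peaks of the 4 lists lay over such a region. The Coil peak of Parental −OHT, the third by score at promoters, was among these peaks. So was the narrow Gm10800 peak (398 bp, score 226) of Parental +OHT.

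Chromosome 11 held more peaks than its length would give in each of the 4 lists. It carried 19.8% (95% Wilson interval 19.1 to 20.5) of the peaks in Parental −OHT, 17.8% (16.8 to 18.8) in Parental +OHT, 18.5% (17.9 to 19.1) in RING1B WT +OHT and 22.7% (21.2 to 24.2) in RING1B I53S +OHT. The chromosome makes up 4.48% of the genome, 5.32% of its CpG and 7.47% of its protein-coding genes. These and the later intervals treat peaks as independent and cover counting error only. In Parental −OHT the density rose along the chromosome, from 8.15 peaks per Mb in the first 20 Mb to 39.8 between 100 and 120 Mb, against 3.90 per Mb on the other chromosomes together. Chromosome 11 took 11.3 to 11.8% of the RNA-seq counts in the 12 libraries of these lines and 8.999 to 9.913% in the 4 libraries of Eed fl/fl mESC of the same series. The part of chromosome copy number in this excess was not tested, and results that chromosome 11 moves are given without it. The 5 widest promoter peaks of Parental −OHT were all on chromosome 11, at Hoxb6, Hoxb3, Cbx8, Grb10 and Etv4; on the other chromosomes the widest lay at Thbs2, Snai1, Six3, Gm38011 and Pax7.

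RING1B WT +OHT cells retained most of the untreated regions, and the other OHT-treated lines a minority. Of the Parental −OHT peaks, 31.6% (30.8 to 32.4) were overlapped by at least 1 bp in Parental +OHT, 81.9% (81.2 to 82.6) in RING1B WT +OHT and 19.7% (19.0 to 20.4) in RING1B I53S +OHT. In base pairs the shares were 23.7%, 84.6% and 15.1% of the length. The length of the lists bears on these shares: with the 3120 highest-scoring peaks of every list they were 50.7%, 77.7% and 49.1%, and with at least 50% of the peak covered 20.7%, 79.5% and 10.1%. The order between RING1B WT +OHT and the other 2 lists held in each case. In the other direction, 71.4% of Parental +OHT peaks, 57.9% of RING1B WT +OHT peaks and 81.8% of RING1B I53S +OHT peaks overlapped a Parental −OHT peak. Of the RING1B I53S +OHT peaks, 85.9% lay over a Parental +OHT peak, and 47.9% of the Parental +OHT peaks lay over a RING1B I53S +OHT peak.

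In Parental +OHT and RING1B I53S +OHT, peaks that were still called were also cut down in extent. A Parental −OHT peak that was overlapped was covered over a median of 63.3% of its length in Parental +OHT, 100% in RING1B WT +OHT and 50.9% in RING1B I53S +OHT. Of the 663 peaks of at least 5 kb, 449, 662 and 416 were overlapped, but 29.2%, 95.6% and 24.0% of their summed length was covered. The wide domains were therefore usually still detected at some point and lost in most of their length outside RING1B WT +OHT. Merged over the 4 lists, the peaks formed 18669 regions, of which 5994 (32.1%) were in RING1B WT +OHT only, 5072 (27.2%) in Parental −OHT and RING1B WT +OHT, 2124 (11.4%) in all 4 lists and 2143 in Parental −OHT only.

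The share of peaks that remained rose with CpG content. Parental −OHT peaks were split into quartiles by their observed over expected CpG ratio, at 0.188, 0.268 and 0.412. From the lowest to the highest quartile, the share overlapped in Parental +OHT was 4.78%, 13.0%, 33.7% and 74.8%. In RING1B I53S +OHT it was 3.07%, 6.52%, 17.3% and 51.7%. RING1B WT +OHT cells kept 72.3%, 79.6%, 83.9% and 91.9%, a far smaller gradient. Score gave a gradient in all 3 lists, from 11.3% to 64.2% in Parental +OHT, from 61.7% to 99.2% in RING1B WT +OHT and from 4.24% to 48.8% in RING1B I53S +OHT between the lowest and the highest quartile.

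**Figure D2:**
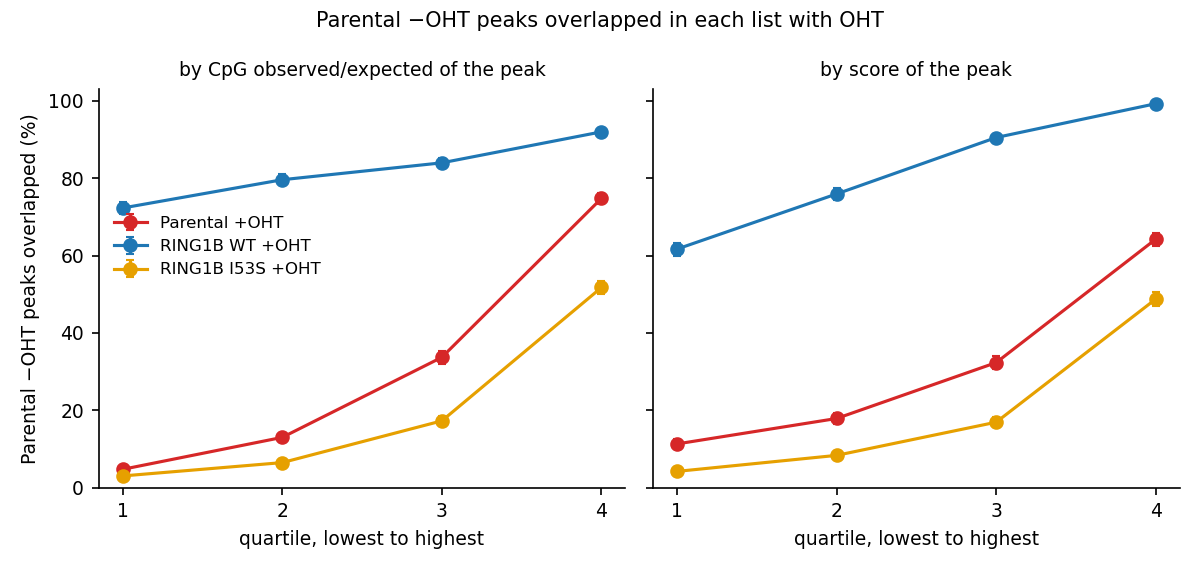
Share of Parental −OHT peaks overlapped in each list with OHT (vertical axis, %), by quartile of the peak's CpG observed over expected ratio (left) and of its score (right); points are shares and bars 95% Wilson intervals over peaks. In Parental +OHT the share climbed from 4.78% to 74.8% across the CpG quartiles, and in RING1B WT +OHT from 72.3% to 91.9%.

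The share also differed by position and by PRC1 occupancy. At promoters, 46.4% of Parental −OHT peaks were overlapped in Parental +OHT, 87.2% in RING1B WT +OHT and 28.6% in RING1B I53S +OHT. Away from promoters the shares were 8.40%, 73.6% and 5.62%. For the 4341 peaks that also overlapped a RING1B peak of Parental −OHT they were 65.7%, 95.1% and 42.3%, against 13.7%, 75.1% and 7.82% for the 8307 without one. Those with RING1B were stronger from the start, with a median score of 19.8 against 12.8 and a median width of 1848 against 1078 bp. Peaks over RYBP, a variant PRC1 subunit, were overlapped in Parental +OHT in 80.3% of cases, and peaks over PCGF6, which defines another variant complex, in 72.9%. For the canonical subunits PCGF2 and CBX7 the shares were 60.1% and 56.7%, and for AEBP2 of PRC2 76.5%. The median score in Parental −OHT was 21.8 over RYBP, 19.4 over PCGF6, 18.9 over PCGF2, 18.7 over CBX7 and 25.6 over AEBP2, against 14.4 over all peaks. Split by promoter and RING1B together, the least retained peaks were those away from promoters and without RING1B. Of these, 4.22% were overlapped in Parental +OHT, 71.4% in RING1B WT +OHT and 3.52% in RING1B I53S +OHT.

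Accordingly, the lists differed in where their peaks lay. Promoters held 61.04% (60.18 to 61.88) of the peaks in Parental −OHT, 88.5% (87.6 to 89.3) in Parental +OHT, 57.6% (56.9 to 58.4) in RING1B WT +OHT and 85.4% (84.2 to 86.6) in RING1B I53S +OHT. Introns held 17.5%, 3.69%, 18.8% and 5.38%, and intergenic sequence 17.9%, 4.00%, 19.3% and 4.81%. The median CpG ratio of the peaks was 0.268, 0.640, 0.272 and 0.664, and their median GC content 52.3%, 59.4%, 53.21% and 60.96%. On both measures Parental +OHT and RING1B I53S +OHT lay close together and apart from the lists with wild-type RING1B.

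Each list with OHT also held peaks without a counterpart in Parental −OHT. The 1558 of Parental +OHT were narrow and CpG-rich, with a median width of 783 bp, a median CpG ratio of 0.739 and 91.0% at promoters; 40.8% of them were overlapped in RING1B WT +OHT and 23.8% in RING1B I53S +OHT. The 6659 of RING1B WT +OHT had a median width of 971 bp and a CpG ratio of 0.235, with 45.8% at promoters and 9.16% overlapped in Parental +OHT. Their median scores, 13.2 and 12.2, were near the minimum of 10, and the part of depth in their appearance was not tested.

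Around start sites, H2AK119ub1 was a domain with a dip at the start site itself in the lists with wild-type RING1B. At the start sites of the 4971 protein-coding genes marked in Parental −OHT, the share inside a peak was 35.7% at 750 bp before the start, 21.2% at the start and 58.3% at 1000 bp after it. RING1B WT +OHT followed the same course, with 41.1%, 34.7% and 63.8%. In Parental +OHT the values were 15.5%, 23.4% and 39.4%, and in RING1B I53S +OHT 6.46%, 10.9% and 22.7%. In these lists the upstream shoulder was missing, and the highest share, 44.6% and 26.4%, lay 500 bp after the start. The stretch in which the share was at least 50% of its own highest value ran from −1250 to 2250 bp in Parental −OHT and from −1250 to 2500 bp in RING1B WT +OHT. It ran from 0 to 1500 bp in Parental +OHT and from 250 to 1500 bp in RING1B I53S +OHT. The genes were chosen by the Parental −OHT list, so that its level is a description, and the comparison lies in the shapes of the other 3.

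**Figure D3:**
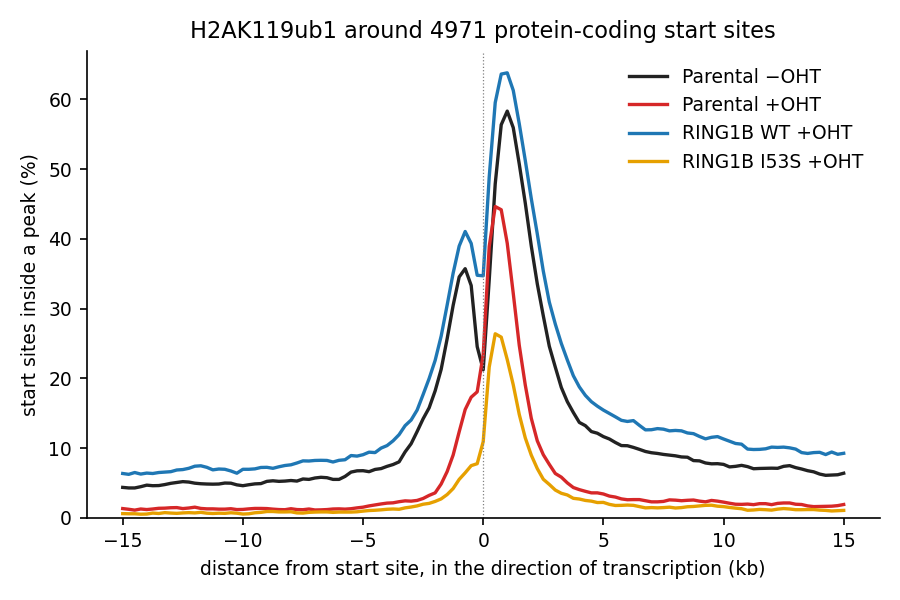
Share of 4971 protein-coding start sites (%) that lie inside an H2AK119ub1 peak at each distance from the start site (kb, in the direction of transcription), 1 line per library. The lines with wild-type RING1B peak 1000 bp after the start at 58.3% and 63.8% and have an upstream shoulder, and the others peak at 500 bp after the start at 44.6% and 26.4%.

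The Hox clusters, which encode the transcription factors of the body axis, lost most of their covered length in the lists without wild-type RING1B. Peaks covered 65.3% of the Hoxa cluster (chr6:52155590-52260880) in Parental −OHT, 12.9% in Parental +OHT, 63.2% in RING1B WT +OHT and 4.44% in RING1B I53S +OHT. For Hoxb (chr11:96194316-96368256) the values were 65.9%, 24.9%, 66.9% and 22.6%. Hoxc (chr15:102921103-103036852) was covered over 35.6%, 4.25%, 49.7% and 0%, and Hoxd (chr2:74668310-74765142) over 70.1%, 16.8%, 68.8% and 7.68%. Hoxb, on chromosome 11, thus kept the largest share among the 4 clusters in both lists without wild-type RING1B. In number of peaks it did not fall: 11 peaks in Parental −OHT became 15 in Parental +OHT and 17 in RING1B I53S +OHT, while the widest shrank from 50474 bp to 7846 and 6885 bp.

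**Figure D4:**
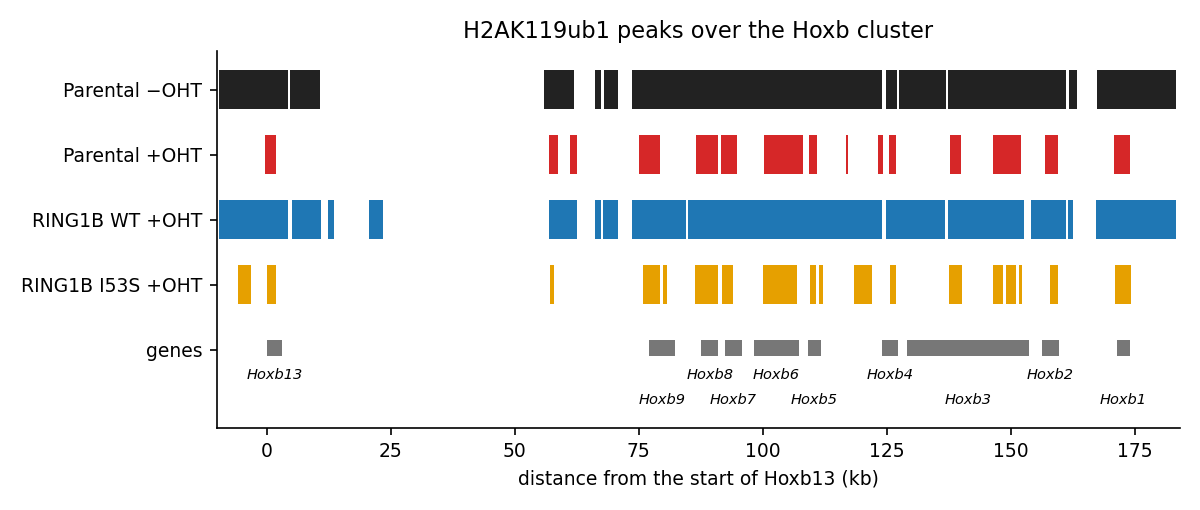
H2AK119ub1 peaks (bars) over the Hoxb cluster in the 4 libraries, with gene bodies below, along the distance from the start of Hoxb13 (kb). Long bars in Parental −OHT and RING1B WT +OHT, covering 65.9% and 66.9% of the cluster, stand against short separate ones in Parental +OHT and RING1B I53S +OHT, covering 24.9% and 22.6%.

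Overlap with RING1B, PCGF2 and CBX7 of the same condition was lower in all 3 lists with OHT than in Parental −OHT, and lowest in those without wild-type RING1B. RING1B peaks overlapped 34.3% of the H2AK119ub1 peaks in Parental −OHT, 1.36% in Parental +OHT, 20.4% in RING1B WT +OHT and 9.55% in RING1B I53S +OHT. The RING1B lists of Parental +OHT and RING1B I53S +OHT were short and lay mostly on chromosome 11. That chromosome held 82.6% of the RING1B peaks in Parental +OHT and 66.8% in RING1B I53S +OHT. Without chromosome 11 the 4 shares were 37.4%, 0.424%, 21.6% and 7.13%. Against the RING1B peaks of Parental −OHT instead, 58.1% of the Parental +OHT peaks and 64.8% of the RING1B I53S +OHT peaks were at former RING1B sites. CBX7, the main canonical CBX protein of mESC, overlapped 37.2%, 0.789%, 15.6% and 0.641%, and PCGF2, a canonical PCGF subunit, 35.4%, 0.477%, 21.2% and 13.6%. PCGF6, at 25.2%, 31.0%, 25.6% and 21.1%, had no such order. RYBP overlapped 14.7% in Parental −OHT, 5.79% in RING1B WT +OHT and 11.3% in RING1B I53S +OHT.

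Among PRC2 components, SUZ12, a core subunit, overlapped 50.8% of the peaks in Parental −OHT, 61.5% in Parental +OHT, 35.0% in RING1B WT +OHT and 52.0% in RING1B I53S +OHT. H3K27me3, the PRC2 product, overlapped 69.7%, 48.3%, 54.0% and 39.3%. JARID2 overlapped 64.6%, 17.7%, 30.8% and 22.3%, and AEBP2 9.69%, 0.128%, 8.16% and 0.705%. MTF2, which binds CpG-rich DNA, overlapped 71.8%, 63.6%, 39.1% and 46.8%. These shares rest on 1 list per antibody and condition, and the lengths of both lists enter each of them. For MTF2 and JARID2 a second list was available for RING1B WT +OHT and RING1B I53S +OHT and was not used. By their titles these second lists are named like the Parental +OHT lists, and the lists used are named otherwise. The Parental and transgenic values may thus come from different sets of libraries. The part of this in the shares was not tested. Parental +OHT held 7774 MTF2 and 1404 JARID2 peaks. In RING1B I53S +OHT the list used and the second one held 3091 and 7546 MTF2 peaks, and 1080 and 446 JARID2 peaks. In RING1B WT +OHT they held 8629 and 8335 MTF2 peaks, and 5728 and 5950 JARID2 peaks.

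Of 21923 protein-coding genes, 4971 (22.7%) were marked in Parental −OHT, 4442 (20.3%) in Parental +OHT, 5975 (27.3%) in RING1B WT +OHT and 2450 (11.2%) in RING1B I53S +OHT. The number of marked genes in Parental +OHT was thus close to that in Parental −OHT, beside fewer than 50% as many peaks. With noncoding genes included, 6833, 5746, 8285 and 3174 gene names were marked. The marked names of Parental −OHT and Parental +OHT were not the same set. In all 4 lists 2569 were marked, in Parental −OHT and RING1B WT +OHT only 2059, and in Parental +OHT only 822. The highest CpG ratio within 1 kb windows at the start sites had a median of 0.627 over protein-coding genes. For marked genes it was 0.737, 0.800, 0.726 and 0.809 in the 4 lists, for genes marked in Parental +OHT only 0.869, and for genes in no list 0.471.

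The groups of developmental regulators were marked nearly throughout in Parental −OHT and RING1B WT +OHT, and less so in the other lists, in each case above these shares. All 39 Hox genes were marked in Parental −OHT and in RING1B WT +OHT, 27 in Parental +OHT and 18 in RING1B I53S +OHT. Of the 65 other homeobox regulators, such as Pax6 and Lhx2, 63, 58, 64 and 51 were marked, in the order Parental −OHT, Parental +OHT, RING1B WT +OHT and RING1B I53S +OHT. Of 48 Gata, Sox, T-box, Zic and bHLH regulators 43, 41, 44 and 34 were marked, and of 38 Wnt, Fgf, Bmp and Hedgehog ligands 35, 30, 36 and 27. Members without a promoter peak in RING1B I53S +OHT included Gata3, Pax3, Isl1, En1, Sox10 and Wnt1. All 10 Hoxb genes, which lie on chromosome 11, and 8 others made up the 18 Hox genes that were marked in all 4 lists.

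Other groups were marked in part. Of 24 pluripotency factors 10, 13, 14 and 10 were marked, with Pou5f1, Nanog and Zfp42 in none of the lists and Esrrb, Klf4 and Tbx3 in all. Of 20 germline and meiosis genes 13, 17, 11 and 6 were marked, and Sycp1, Sycp3, Hormad1, Tex101 and Spo11 in Parental +OHT only. Of 26 PRC1 subunit genes 15, 17, 16 and 11 were marked, among them Cbx2, Cbx8, Bmi1 and Pcgf5 in all lists. PRC2 subunits had 4, 8, 4 and 3 of 12, with Ezh2, Ezh1, Suz12 and Rbbp4 in Parental +OHT only. Of 10 CDK inhibitors and D-type cyclins 7, 6, 7 and 6 were marked, and of 17 trophoblast and endoderm genes 9, 8, 12 and 6. Of the 6 genes listed for H2A deubiquitination, which include Asxl1, Asxl2 and Asxl3 beside genes of the enzymes themselves, 0, 3, 0 and 0 were marked. The 3 were Bap1, Asxl3 and Usp16. Of 30 housekeeping genes 3, 6, 4 and 2 were marked.

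RNA-seq then gave the level of the marked genes. The 12 libraries held 8140106 to 12743460 counted reads, and the counts were tested with edgeR's quasi-likelihood test; called genes had a log2 fold change of 1.5 or more in either direction together with an FDR (Benjamini-Hochberg, over the 18154 genes tested) below 0.05. In bulk RNA, fewer cells of a type and less RNA per cell cannot be told apart. Of 6 mESC markers Sox2 and Zfp42 fell in Parental cells and the other 4 were not called. The summed level of Pou5f1, Nanog, Sox2, Esrrb, Zfp42 and Klf4 was 2281 to 2912 CPM (counts per 1e6 counted reads) in Parental −OHT and 1027 to 1050 CPM in Parental +OHT. It was 2204 to 2820 and 2008 to 2028 CPM in RING1B WT cells without and with OHT, and 2113 to 2665 and 1175 to 1197 CPM in RING1B I53S cells. Of 7 fibroblast feeder markers, Col3a1, Dcn, Lum and Postn were too low to be tested, and the sum of the other 3 was 11.87 to 14.01 and 45.7 to 48.3 CPM in Parental cells, 9.982 to 11.98 and 20.6 to 20.7 CPM in RING1B WT cells and 14.8 to 15.5 and 39.4 to 49.9 CPM in RING1B I53S cells. The part of a change in cell state in the results that follow was not tested. The gene counts of Rnf2, which encodes RING1B, were 198 and 257 CPM in Parental −OHT and 144 and 167 CPM in Parental +OHT; counts over the whole gene do not show which exons remain.

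Genes marked in Parental −OHT were low in those cells. Of 6833 marked gene names, 4699 passed the filter on low counts, and a gene could pass through the group in which it is high. The median level of those in Parental −OHT was 1.07 CPM per kb of exon, against 3.14 CPM per kb over all genes tested and 4.43 CPM per kb over genes marked in none of the lists. Genes marked in Parental −OHT and RING1B WT +OHT only were lowest, at 0.643 CPM per kb, and genes marked in Parental +OHT only were highest, at 7.38 CPM per kb.

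With OHT, many marked genes rose in Parental and RING1B I53S cells and few in RING1B WT cells. In Parental cells 1725 of the 4699 marked genes rose (36.7%) and 36 fell, beside 15.1% of all genes tested that rose and 1.83% that fell. Without the filter on low counts, 29.0% of 6356 marked genes rose, beside 7.98% of all genes. In RING1B I53S cells 1550 rose (33.0%) and 18 fell, beside 12.8% and 1.04% of all genes. In RING1B WT cells 161 rose (3.43%) and 3 fell, beside 1.34% and 0.0386%. The median log2 fold change of the marked genes was 0.97, 0.90 and 0.36 in Parental, RING1B I53S and RING1B WT cells, beside 0.03, 0.01 and 0.02 over all genes. The RING1B WT count rested on single libraries: it was 15 without the second RING1B WT −OHT replicate and 23 without the second RING1B WT +OHT replicate.

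The difference between lines was tested itself. The OHT effect was lower in RING1B WT than in Parental cells at 161 marked genes (3.43%) and higher at 6 (0.128%), beside 1.10% and 0.435% of all genes. The median difference of the marked genes was −0.49 on the log2 scale. That count of 161 fell to 39 without the first RING1B WT +OHT replicate, to 57 and 67 without the second or first Parental +OHT replicate, to 70 without the first RING1B WT −OHT replicate and to 81 without the second Parental −OHT replicate. Between RING1B I53S and Parental cells no marked gene was called in either direction with edgeR, beside 0% of all genes, and the median difference was −0.07. At an unadjusted p under 0.05, 207 of the 4699 marked genes and 488 of all 18154 genes passed with edgeR. With DESeq2 161 and 376 passed, and it also called none after adjustment. Each of these shares was below the 0.05 that would pass with no difference between the lines. The tests were thus stricter than their stated level and could miss differences between RING1B I53S and Parental cells. The absence of called genes therefore does not show that the OHT effects of these lines were equal. The comparisons of RING1B WT and of RING1B I53S with Parental cells share the Parental libraries.

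The wider the promoter was covered, the more often its gene rose. The share of all start site windows of a gene that lay inside peaks in Parental −OHT was cut at its quartiles of 9.34%, 19.3% and 38.5%. From the lowest to the highest quartile, 17.7%, 29.7%, 39.7% and 59.7% of genes rose in Parental cells, 15.4%, 25.4%, 36.0% and 55.1% in RING1B I53S cells and 1.62%, 3.15%, 3.66% and 5.28% in RING1B WT cells. Their level before OHT moved in the opposite direction, from a median of 2.38 CPM per kb in the lowest quartile through 1.30 and 0.927 to 0.349 in the highest, and a low gene could pass the filter on counts through the groups in which it is high. Among genes at 10 CPM per kb or more in Parental −OHT, 3.96% of the marked and 0.267% of the unmarked genes rose in Parental cells. By score quartile the range was narrower, from 24.98% to 49.62%.

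The lists in which a promoter was marked also went with different shares. In Parental cells 36.7% of the 1964 tested genes marked in all 4 lists rose, 41.7% of the 1216 marked in Parental −OHT and RING1B WT +OHT only, and 36.3% of the 1063 that lacked only the RING1B I53S +OHT peak. The share was 27.9% of 262 genes marked in Parental −OHT only, 28.4% of 74 that lacked only the Parental +OHT peak and 16.2% of 99 marked in Parental −OHT and Parental +OHT only; these differences were not tested. Genes marked in Parental +OHT only rose in 3.88% of 670 cases, and genes in no list in 6.92% of 11298. A RING1B peak at the promoter went with a larger share: 49.1% of marked genes with one rose, 16.9% of marked genes without one, and 34.8% of genes with RING1B and no H2AK119ub1 peak. In that order their median levels in Parental −OHT were 0.570, 2.82 and 0.802 CPM per kb. A low gene could pass the filter on counts through the groups in which it is high. The part of the starting level in these shares was not tested. Read from the expression side, 62.8% of the genes that rose in Parental cells were marked in Parental −OHT and 10.8% of those that fell, against 25.9% of all genes tested.

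Many of the Hox genes and other developmental regulators were near 0 in Parental −OHT and could pass the filter on counts through the groups in which they are high, so that their counts are a description. Over all marked genes tested, 36.7% rose in Parental cells, 33.0% in RING1B I53S cells and 3.43% in RING1B WT cells. Of 39 marked Hox genes 29 passed, and 26 rose in Parental cells, 25 in RING1B I53S cells and 5 in RING1B WT cells. Of 63 marked homeobox regulators outside the clusters 55 passed, and 43, 43 and 6 rose, among them Lhx2 (log2 fold change 4.28 in Parental cells) and Pax6 (3.45). Of 43 marked Gata, Sox, T-box, Zic and bHLH regulators 38 passed, and 29, 26 and 3 rose, with Sox17 at 5.73 and T at 1.93. Zic2 and Zic5 fell in Parental cells, with log2 fold changes of −2.098 and −2.506. Of 35 marked ligands 33 passed, and 25, 26 and 3 rose, while Bmp4 had a log2 fold change of 0.05 in Parental cells (edgeR adjusted p = 0.894).

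Gata3 (chr2:9857078-9890034), a regulator of trophoblast and other lineages, lost its promoter peak in RING1B I53S +OHT and had one in the other lists, 6701 bp wide in Parental −OHT, 3872 bp in Parental +OHT and 8918 bp in RING1B WT +OHT. Its level was 0.489 and 0.494 CPM in Parental −OHT and 52.9 and 51.8 CPM in Parental +OHT. In RING1B I53S cells it was 0.927 and 0.672 CPM without and 35.6 and 36.8 CPM with OHT, and in RING1B WT cells 1.604 and 1.21 CPM without and 4.93 and 7.60 CPM with OHT. The groups with and without OHT did not overlap in any of the lines, and the replicates of RING1B WT +OHT lay farther apart than those of Parental +OHT. The log2 fold changes were 6.70 ± 0.36 (SE, edgeR adjusted p = 7.02e-10) in Parental cells, 5.46 ± 0.33 (adjusted p = 6.94e-09) in RING1B I53S cells and 2.13 ± 0.34 (adjusted p = 0.00277) in RING1B WT cells. The effect in RING1B WT cells differed from that in Parental cells by −4.57 ± 0.54 (edgeR adjusted p = 0.000106). The RING1B WT call was lost without the second RING1B WT +OHT replicate (1.79, edgeR adjusted p = 0.0618) or the second RING1B WT −OHT replicate (1.94, adjusted p = 0.0696).

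Ccnd2 (chr6:127125162-127152193), a D-type cyclin of the G1 phase, kept a promoter peak in all lists, of 3793, 5858, 8204 and 2937 bp. Its level went from 2.44 and 4.33 CPM to 195 and 166 CPM in Parental cells, from 2.39 and 3.07 to 86.3 and 86.5 CPM in RING1B I53S cells and from 2.57 and 5.27 to 13.4 and 23.7 CPM in RING1B WT cells. The gene thus rose in all 3 lines, with log2 fold changes of 5.78, 4.99 and 2.23, beside a promoter peak past the threshold in each list. Cdkn1c (chr7:143458339-143461050), an imprinted inhibitor of cyclin-dependent kinases, rose from 1.14 and 2.23 to 25.8 and 27.6 CPM in Parental cells, and stood at 2.25 and 1.65 CPM without and 2.72 and 3.24 CPM with OHT in RING1B WT cells. Its promoter peak had a score of 73.1 and a width of 5560 bp in Parental −OHT and a score of 120 and a width of 2397 bp in Parental +OHT. The part of the promoter window inside peaks fell from 93.1% to 35.6%.

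Hoxb13 (chr11:96194316-96197447), the gene at the end of the Hoxb cluster, had a peak of 13866 bp and score 143 in Parental −OHT, 2188 bp and 12.7 in Parental +OHT, 13940 bp and 146 in RING1B WT +OHT and 1674 bp and 17.2 in RING1B I53S +OHT. Its level went from 0.652 and 2.23 to 34.8 and 33.5 CPM in Parental cells, from 1.31 and 0.576 to 17.3 and 24.97 CPM in RING1B I53S cells and from 0.749 and 0.219 to 4.63 and 5.98 CPM in RING1B WT cells. It rose in all 3 lines, by 4.67, 4.43 and 3.41 on the log2 scale, and the difference between RING1B WT and Parental cells, −1.26 ± 0.83, did not pass the test (edgeR adjusted p = 0.546). The RING1B WT call was lost without its second −OHT replicate (2.80, edgeR adjusted p = 0.0725). Cbx8 (chr11:119036305-119040969), a canonical PRC1 subunit, lay by a domain that in RING1B WT +OHT formed a single peak of 34774 bp. Its level went from 1.47 and 0.865 to 26.2 and 31.1 CPM in Parental cells, from 4.64 and 2.40 to 17.0 and 25.4 CPM in RING1B I53S cells and from 1.93 and 2.30 to 3.62 and 9.22 CPM in RING1B WT cells. The rise passed in Parental cells (4.55 ± 0.45, edgeR adjusted p = 4.21e-07). RING1B I53S cells gave 2.57 ± 0.39, also past the test (edgeR adjusted p = 6.68e-05), and the value in RING1B WT cells was 1.58 ± 0.44 (edgeR adjusted p = 0.0671). It passed with DESeq2 (1.59, adjusted p = 0.0241), without the filter on low counts and without the first RING1B WT +OHT replicate (2.11, edgeR adjusted p = 0.0174).

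PRC1 subunit genes rose at a share near that of all marked genes (36.7%). Of 15 marked and tested, 6 rose in Parental cells, among them Cbx8 and Pcgf5, with log2 fold changes of 4.55 and 1.93; 4 rose in RING1B I53S cells and none in RING1B WT cells. Phf19, a PRC2 accessory subunit, was the 1 of 4 marked PRC2 genes that rose (1.75). Of 13 marked germline genes 11 rose in Parental cells, 9 in RING1B I53S cells and 7 in RING1B WT cells. The shares of all marked genes that rose were 36.7%, 33.0% and 3.43% in that order. Tdrd1, a piRNA pathway gene, went from 0.163 and 0.742 to 27.8 and 25.3 CPM in Parental cells and from 0.963 and 0.658 to 2.62 and 5.23 CPM in RING1B WT cells. Of 9 marked trophoblast and endoderm genes 7, 6 and 0 rose in Parental, RING1B I53S and RING1B WT cells; Foxa2 and Foxa1, endoderm regulators, had log2 fold changes of 6.05 and 5.98 in Parental cells. None of the 3 marked housekeeping genes was called in any line.

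Of 10 marked pluripotency factors 6 were not called in Parental cells, Esrrb, Klf4, Klf5, Tbx3, Utf1 and Lin28a. All 6 had log2 fold changes below 0, from −1.41 for Esrrb to −0.34 for Klf4. Esrrb, Klf5, Tbx3 and Lin28a had an FDR below 0.05 and missed only the fold threshold. The median of the 10 factors was −0.98. Prdm14, Lefty1 and Fgf4 fell, with log2 fold changes of −1.65, −3.83 and −1.51, beside 0.766% of all marked genes that fell, and Dppa3, a maternal-effect factor expressed in naive mESC, rose by 1.57, a call lost without the second Parental −OHT replicate (1.49). Lefty1 (chr1:180935022-180938400), a Nodal antagonist, was marked in Parental −OHT and RING1B WT +OHT only. Its level fell from 308 and 254 to 16.9 and 22.5 CPM in Parental cells, from 215 and 191 to 13.8 and 22.6 CPM in RING1B I53S cells and stood at 319 and 227 CPM without and 129 and 89.8 CPM with OHT in RING1B WT cells. The log2 fold change of −1.32 in RING1B WT cells was past the threshold without the first RING1B WT +OHT replicate (−1.61) or the second RING1B WT −OHT replicate (−1.54). Etv5, an ETS factor downstream of FGF signalling, was marked in all lists and went from 324 and 347 to 70.9 and 67.1 CPM in Parental cells and from 350 and 421 to 327 and 303 CPM in RING1B WT cells. Sall1, a zinc finger factor, went from 106 and 94.6 to 18.7 and 17.2 CPM in Parental cells. The score of its promoter peak was 12.9 in Parental −OHT and 48.1 in Parental +OHT. A marked promoter thus accompanied changes in both directions.

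**Figure D5:**
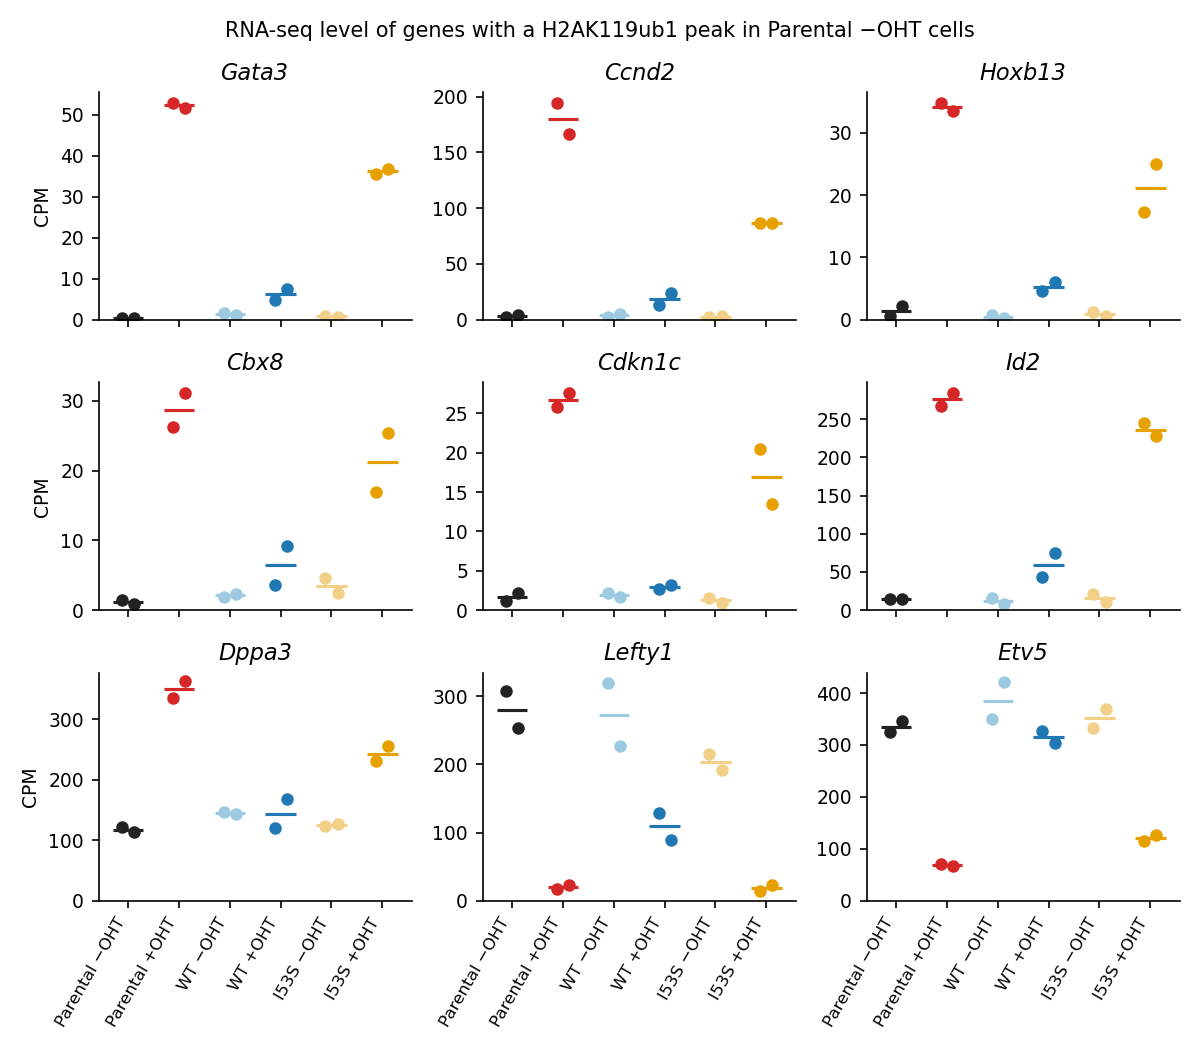
RNA-seq level (CPM, linear axes from 0) of 9 genes with a promoter peak in Parental −OHT, in Parental, RING1B WT and RING1B I53S cells without and with OHT; points are the 2 libraries of a group and lines their mean. Gata3 sits near 52 CPM in Parental +OHT and below 8 CPM in RING1B WT +OHT, and Lefty1 and Etv5 fall in Parental and RING1B I53S cells.

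The genes with the highest scores included some that rose and some that were not called. Grb10, with the highest score in every list, rose from 8.47 and 15.2 to 40.0 and 63.1 CPM in Parental cells (log2 fold change 2.14 ± 0.37, edgeR adjusted p = 0.000204). Neurog1, a proneural bHLH factor with a promoter peak of 13075 bp in Parental −OHT and 3817 bp in RING1B I53S +OHT, was at 1.14 and 0.865 CPM without and 2.56 and 1.07 CPM with OHT in Parental cells (0.84 ± 0.70, edgeR adjusted p = 0.382). Its score was 87.2 in Parental −OHT, 191 in Parental +OHT, 129 in RING1B WT +OHT and 195 in RING1B I53S +OHT. Ntn1, a guidance cue, and Bahcc1, both also among the highest scores shared by all lists, had log2 fold changes of −0.85 and 0.18 in Parental cells and were not called. Socs3 differed between replicates, at 73.8 and 326 CPM in Parental +OHT, 26.4 and 292 CPM in RING1B WT +OHT and 40.2 and 447 CPM in RING1B I53S +OHT, with the second replicate high in each line.

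Of the genes with the highest Parental −OHT scores among those marked in Parental −OHT and RING1B WT +OHT only, Col16a1, a collagen gene, rose in Parental cells from 0.163 and 0.124 to 2.56 and 2.34 CPM. Foxn3, a forkhead repressor, was at 82.9 and 66.9 CPM without and 72.3 and 57.5 CPM with OHT. Wnt8a, a Wnt ligand, was at 0.244 and 0.494 and at 1.02 and 1.07 CPM, which did not pass the test (edgeR adjusted p = 0.186), and Gm6116 and Gm44758 were too low to be tested. Among genes marked in Parental +OHT only, Plekhh2, Atp2a2 and Rap2a had the highest scores, 30.5, 28.9 and 26.6. Their log2 fold changes in Parental cells were 0.39, −0.04 and 0.59, and none of them was called; these 3 were chosen after their values were seen.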

How the data were processed

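The peaks of ChIP-seq libraries and the gene counts of RNA-seq libraries of mESC were read as deposited. The authors aligned ChIP-seq reads to mm10 with Bowtie 1.2.2, keeping uniquely mapped reads, removed duplicates with samblaster, called peaks in each library against an input with MACS2 2.1.1, and deposited positions and a score, the −log10 p-value. The numbers in the deposited peak names run to 23745, 9459, 29588 and 6302, above the numbers of peaks listed. RNA-seq reads were aligned by the authors with STAR 2.7 and assigned without strand to GENCODE M21 genes with featureCounts, and the deposited values are raw counts per gene name; overlapping genes cannot be separated. The deposited tables of comparisons hold the authors' own fold changes and p-values and were not used.

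Overlaps (at least 1 bp), promoters, CpG and 95% Wilson intervals were computed in Python 3.11.15 with scipy 1.17.1. Tests on counts used edgeR 4.0.16 under R 4.3.3 (TMM, filterByExpr, quasi-likelihood, 1 fit of 12 libraries; 18154 of 55341 gene names tested; biological coefficient of variation 0.181) and, as an alternative, DESeq2 1.42.0; the scripts were tested on simulated data. Depth was 8140106 to 12743460 counts per library; that of the ChIP-seq libraries is not known from the lists. CPM per kb divides by merged exon length. No test was made on peaks, with 1 library per condition.

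Genes are named by rule: the 3 highest-scoring promoter peaks of each list, the 5 widest of Parental −OHT, the 5 highest-scoring of 2 classes of lists, 2 of each of 12 gene lists and 3 for each direction of each OHT effect by adjusted p, and Rnf2, Ring1 and mESC markers; from these the text takes those described, and list members or genes named for their place come on top. Members, gene lists and rules were chosen with earlier results of these data known. 1 sample of the series could not be assigned to a group and was left out. Alternatives covered score, overlap, promoter window, normalization, filter, fold threshold, DESeq2, a replicate block and each replicate left out; leaving out chromosome 11, RING1B peaks of untreated cells and the alternatives for differences between lines were added after the data were seen.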

Additional observations from a re-analysis of the deposited data

Results flagged for a closer look

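The OHT effect on marked genes differed between RING1B WT and Parental cells by the edgeR test of the difference itself (absolute log2 difference of at least 1.5, FDR under 0.05), at 161 genes with a lower and 6 with a higher log2 fold change in RING1B WT cells. These were 3.43% and 0.128% of the 4699 marked genes tested, beside 1.10% and 0.435% of all genes tested. Among the genes named by rule, the difference (RING1B WT minus Parental, log2) was −4.57 for Gata3, −4.35 for Etv4, −4.27 for Hand1, −3.89 for Nkx2-9, −3.77 for Tdrd1, −3.54 for Ccnd2, −3.48 for Wnt5a, −3.43 for Cdkn1c, −3.10 for Pax3 and −2.98 for Cbx8. It was −1.86 for Id2, −1.83 for Col4a1, −1.72 for Crabp1 and −1.59 for Dppa3. In these 14 genes the RING1B WT effect was lower than the Parental one. It was higher for genes that fell in Parental cells, by 2.80 for Pga5, 2.52 for Lefty1, 1.99 for Etv5, 1.97 for Sall1, 1.66 for Zfp42 and 1.53 for Sox2, the last 2 of which had no peak in Parental −OHT. The groups have 2 replicates, so that no outlying sample could be looked for.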

How the results depend on the processing

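Values are given in the order Parental −OHT, Parental +OHT, RING1B WT +OHT and RING1B I53S +OHT. With scores of at least 20 the lists held 3196, 1939, 5027 and 912 peaks, promoters held 77.4%, 94.0%, 74.5% and 92.0% of them, 2786, 2416, 4255 and 1093 gene names were marked, and RING1B overlapped 55.9%, 0.258%, 32.5% and 4.39%. A promoter window of 1 kb gave 52.7%, 84.2%, 49.7% and 79.8% at promoters, and leaving out chromosome 11 63.9%, 90.1%, 59.99% and 87.4%. The share of Parental −OHT peaks overlapped in Parental +OHT, RING1B WT +OHT and RING1B I53S +OHT was 38.8%, 90.1% and 22.3% with scores of at least 20, 20.7%, 79.5% and 10.1% with 50% of the peak covered, and 50.7%, 77.7% and 49.1% with equal numbers of top peaks. RING1B overlapped 16.8%, 0.477%, 7.30% and 4.13% with 50% of the peak covered and 37.4%, 0.424%, 21.6% and 7.13% without chromosome 11, and its Parental −OHT peaks overlapped 58.1%, 27.1% and 64.8% of the 3 lists with OHT.

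For marked genes, a score of at least 20 left 894 that rose and 14 that fell in Parental cells, 79 that rose in RING1B WT cells, and 840 that rose and 5 that fell in RING1B I53S cells, since fewer genes are then marked. The difference between RING1B WT and Parental cells was then higher at 3 and lower at 86. Calls over all genes did not change with the score, at 15.1%, 1.34% and 12.8% that rose in Parental, RING1B WT and RING1B I53S cells. Without a fold threshold 235, 21 and 160 fell in Parental, RING1B WT and RING1B I53S cells, and the difference was higher at 17. The share of all genes was not taken for that setting. Without the filter on low counts 294 of 6356 marked genes rose (4.63%) and 5 fell in RING1B WT cells, beside 1.23% of all genes that rose. The difference was then lower at 304 of them, beside 400 of all 37779 genes. With DESeq2 it was lower at 245 of 4699 marked genes, beside 300 of all 18154. A fit of the 4 RING1B WT libraries alone gave 100 that rose (2.73%), beside 0.945% of all genes. Leaving out 1 replicate at a time (the lone library being taken to vary like the others) gave 1393 to 1597 that rose and 28 to 38 that fell in Parental cells, 15 to 165 and 1 to 8 in RING1B WT cells, 1112 to 1541 and 12 to 27 in RING1B I53S cells, and a difference higher at 4 to 8 and lower at 39 to 162 between RING1B WT and Parental cells, with 0 between RING1B I53S and Parental cells. The causes were not tested.

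Replicate numbers are shared by the groups; the deviations of same-numbered libraries correlated at 0.101 in Parental, 0.0627 in RING1B WT and 0.198 in RING1B I53S cells, and between −0.003 and 0.301 over all pairs of groups; since not every one was over 0.1 and no label ties the numbers to a batch, they were not taken as pairs. With the replicate block 1763, 186 and 1585 marked genes rose in Parental, RING1B WT and RING1B I53S cells, and the difference between RING1B WT and Parental cells was lower at 214. These were 37.5%, 3.96% and 33.7% of the marked genes that rose, beside 15.6%, 1.56% and 13.2% of all genes. Over all 18154 genes the difference was lower at 271. For named genes, 1503 of 1560 alternative values kept direction and side of the threshold, 35 lost the call, 22 gained it and 0 reversed. With 1 ChIP-seq library of unknown depth per condition, peaks near the score minimum have no replicate check.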
